A study of Mus musculus with 6 samples.

Results

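The compound PD0325901, which inhibits the protein kinases MEK1 and MEK2, was compared with vehicle in primary Sertoli cells of C57BL/6J mice on 4 of the 6 arrays of the series. Both groups held 2 arrays each, chosen by their treatment label, and each array measured total RNA after 24 h with 10 µM PD0325901 or with vehicle. The culture medium (F12/DMEM, at 34 °C) of every group, vehicle included, held epidermal growth factor (EGF, 5 ng/ml) beside transferrin (5 µg/ml) and insulin (10 µg/ml), so the vehicle cultures were themselves under a growth factor. The other 2 arrays held cells given basic fibroblast growth factor (bFGF, labelled as 20 ng) in the same medium. Whether both samples of a group are separate cultures or animals is not stated in the labels, and the p-values therefore cover only the spread within these pairs of samples, possibly a technical one.

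In the pathway that the inhibitor blocks, a receptor for a growth factor such as EGF activates Ras and the kinase Raf, Raf phosphorylates MEK1 and MEK2, and these phosphorylate ERK1 and ERK2. Active ERK enters the nucleus and acts on transcription factors, among them the ternary complex factors that sit beside serum response factor (SRF) on a DNA motif called the CArG box. SRF is also used by the actin-regulated coactivators of the myocardin family, which drive genes of contractile muscle from the same motif. Sertoli cells line the seminiferous tubules of the testis and nourish the germ cells there, and ERK signalling in them is known for its part in their proliferation.

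Levels below are log2 signals relative to the 75th percentile of the array, so that 0 is the level of that percentile, and differences are PD0325901 minus vehicle on the log2 scale with their standard error (SE, n = 2 arrays per group). A gene was tested where both arrays of 1 or more of the 3 groups, bFGF included, showed a probe of it well above background. The brightest such probe stood for the gene, and counts of tested members leave out list members without one. Genes past a limma Benjamini-Hochberg adjusted p of 0.05 are called higher or lower. Of 14236 genes tested, 7596 (53.4%) passed, 3428 higher (24.1%) and 4168 lower (29.3%), and the smallest difference that passed was 0.12. At least 2-fold differences were found for 1673 genes (11.8%), 579 higher (4.07%) and 1094 lower (7.68%). With each array scaled on its median the split was 4684 higher and 3209 lower, because that scaling moved all differences up by 0.107. Without PD0325901 replicate 1 the counts were 2279 higher and 2805 lower, and without replicate 2 they were 2290 and 2849. The counts for gene groups below are to be read against these shares. The median SE was 0.066, and the number of arrays limits the precision. The 2 vehicle arrays lay on 1 slide and the 2 PD0325901 arrays on another, and the values below are therefore of slide and treatment at once, which cannot be told apart. The 2 bFGF arrays lay on yet another slide, and the same limit holds for the bFGF values below. Of the genes tested, 838 were well above background on none of the 4 compared arrays and entered through the bFGF arrays.

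Dusp6, the phosphatase that inactivates ERK and is induced by it, lay at 4.71 and 4.86 with vehicle and -1.31 and -1.26 with PD0325901, and it fell by 6.07 ± 0.07 (limma adjusted p = 4.23e-05). Egr2, an immediate early transcription factor, lay at 1.28 and 1.32 with vehicle and -4.50 and -4.60 with PD0325901 and fell by 5.85 ± 0.07. Pdlim3, a PDZ and LIM domain protein that binds alpha-actinin at the muscle Z-disc, lay at -1.28 and -1.04 with vehicle and 2.59 and 2.58 with PD0325901 and rose by 3.74 ± 0.14. For these 3 marker genes the arrays of the 2 groups did not overlap. That held for all 7596 genes that passed, and with 2 arrays per group it adds little to the test itself. Defining genes of the labelled cell type were well above background on all 4 arrays: Sox9, a transcription factor of Sertoli cell fate, lay at 3.57 and 3.61 with vehicle and 3.86 and 3.87 with PD0325901, Wt1, the Wilms tumour transcription factor, at 3.26 and 3.32 with vehicle and 3.0 and 3.01 with PD0325901, and Clu, which encodes the abundant secreted protein clusterin, at 7.86 and 7.91 with vehicle and 7.78 and 7.90 with PD0325901. Of 38 tested Sertoli cell genes 11 rose and 16 fell, 5 and 6 of them at least 2-fold (median difference -0.049, against -0.045 over all genes). Espn, the actin-bundling protein espin of Sertoli cell junctions, lay at 0.65 and 0.39 with vehicle and -3.85 and -3.85 with PD0325901 and fell by 4.37 ± 0.09, and Nr0b1, the nuclear receptor DAX1, rose by 2.06 ± 0.27.

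Markers of other cells differed between the groups in both directions. Among 10 markers of peritubular myoid cells and smooth muscle, 7 rose and 1 fell, and their summed linear level, in units of the 75th percentile, went from 63.2 and 67.8 with vehicle to 93.2 and 93.8 with PD0325901. Of 11 fibroblast and stromal markers 6 rose and 2 fell, with sums of 39.7 and 39.6 against 65.6 and 64.5. Of 11 macrophage markers 2 rose and 4 fell (sums 12.4 and 11.3 against 7.77 and 7.61). Of 9 endothelial markers 1 rose and 5 fell, 4 of the falls at least 2-fold (median -1.49). Their sums were 34.4 and 33.8 against 37.3 and 38.8, and a linear sum weighs the brightest markers most. The defining endothelial gene Pecam1 was not well above background on either PD0325901 array, and the macrophage gene Adgre1 (F4/80) did not pass (-0.061). Of 14 germ cell markers 4 rose and 2 fell (sums 41.2 and 38.7 against 60.6 and 60.9). Of 6 Leydig cell markers 0 rose and 3 fell (sums 26.8 and 27.7 against 22.8 and 22.9). These small counts shifted: the 4 higher germ cell markers were 7 with median scaling and 2 with any of the 4 arrays left out, and their 2 lower markers were 1 and 0 without PD0325901 replicate 1 and 2. The 3 lower Leydig cell markers were 1 with median scaling or without vehicle replicate 1, and 0 with either PD0325901 replicate left out. The 1 lower myoid and the 1 higher endothelial marker did not pass without vehicle replicate 2, PD0325901 replicate 1 or PD0325901 replicate 2. Only 1 macrophage marker was higher, and 1 fibroblast marker lower, without vehicle replicate 1, PD0325901 replicate 1 or PD0325901 replicate 2. In cultures measured as a whole, fewer cells of a type and less RNA per cell cannot be told apart. The part of any of these cells in the results below was not tested.

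**Figure D1:**
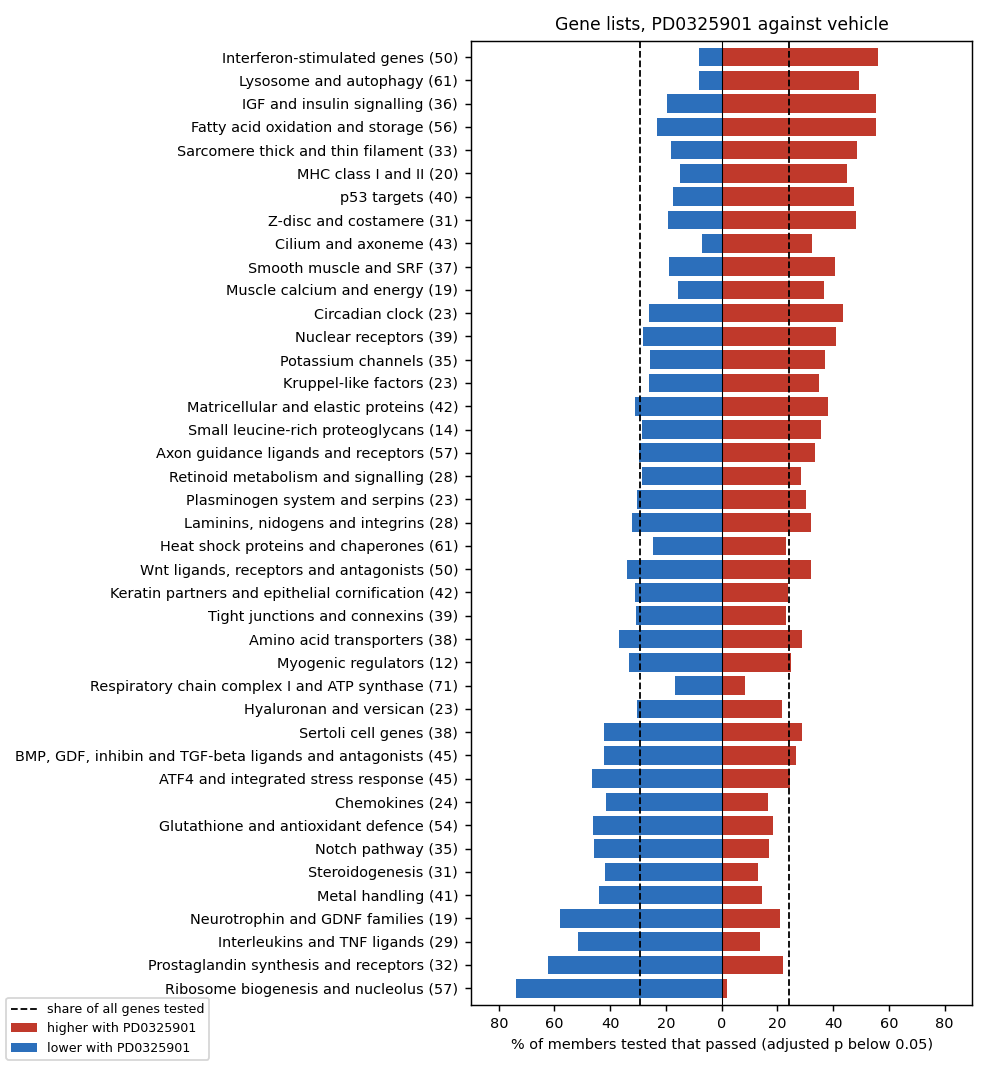
Share of tested members of each function list that were higher (red, to the right) or lower (blue, to the left) with PD0325901, in percent, with the number of members tested in brackets. The dashed lines mark the shares over all 14236 genes, 24.1% higher and 29.3% lower; interferon-stimulated genes and lysosomal genes lie at the upper end, prostaglandin genes and ribosome biogenesis genes at the lower.

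Lists left aside here were those of ERK outputs and feedback (7 higher and 25 lower of 36), the cell cycle (36 lower of 39) and cholesterol synthesis (2 higher and 23 lower of 26). The genes named next were among those with the largest folds outside these lists. Btnl10, a member of the butyrophilin family, lay at -3.81 and -3.84 with vehicle and 0.58 and 0.62 with PD0325901 and rose by 4.43 ± 0.12 (limma adjusted p = 0.000101). It was also higher with bFGF, by 1.65 ± 0.12 (adjusted p = 0.00827), where 19.9% of all genes passed against the same vehicle arrays. Retreg1, a receptor for autophagy of the endoplasmic reticulum, rose by 3.33 ± 0.07, Fras1, a basement membrane protein, by 3.18 ± 0.06, and Adamts15, a protease of proteoglycans, by 3.1 ± 0.17. Stmn4, a stathmin that binds tubulin, rose by 2.94 ± 0.15, Kif5c, a kinesin of axonal transport, by 2.64 ± 0.05, and Fibin by 3.0 ± 0.07. Spon2, a secreted matrix protein, rose by 3.03 ± 0.14 on its brightest probe and by 1.60 on the other. Acss1, the mitochondrial acetyl-CoA synthetase, rose by 2.66 ± 0.05. Vegfd, a growth factor of lymphatic vessels, lay at -2.59 and -2.38 with vehicle and 0.33 and 0.23 with PD0325901 and rose by 2.77 ± 0.10.

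On the other side, Serpinb2, an inhibitor of plasminogen activators, lay at -0.60 and -0.62 on the vehicle arrays and was not well above background on either PD0325901 array, which made it at least 55.4-fold lower. Has2, the main hyaluronan synthase of mesenchymal cells, lay at -0.90 and -1.03 with vehicle and -6.12 and -6.14 with PD0325901 and fell by 5.17 ± 0.06. Only 1 of the 2 PD0325901 arrays showed it well above background, and the same held for Slco4a1. Ubash3b, a phosphatase that dampens receptor tyrosine kinases, fell by 4.93 ± 0.06, and Slco4a1, a transporter of organic anions and thyroid hormone, by 4.95 ± 0.18. Map7d3, a microtubule-associated protein, fell by 4.54 ± 0.04, Hdc, which makes histamine, by 3.74 ± 0.07, and Gdf15, a stress-induced cytokine, by 3.68 ± 0.06. Plk3, a polo-like kinase, fell by 3.65 ± 0.05, Rapgef3, the cAMP-activated exchange factor Epac1, by 3.64 ± 0.07, and Lrp8, a receptor for reelin, by 3.53 ± 0.06. Alas2, the erythroid enzyme that begins heme synthesis, fell by 3.47 ± 0.08. These 11 genes were picked for their difference from the same vehicle arrays. With bFGF, 6 of the 11 passed against those arrays, beside 19.9% of all genes tested. Serpinb2, Map7d3, Hdc and Alas2 were higher there, by 0.84 ± 0.12, 0.50 ± 0.04, 0.49 ± 0.07 and 0.46 ± 0.08, and Gdf15 and Rapgef3 lower, with differences of -0.46 ± 0.06 and -0.30 ± 0.07. The other 5, Has2, Ubash3b, Slco4a1, Plk3 and Lrp8, differed from vehicle by -0.10 ± 0.06, 0.10 ± 0.06, -0.027 ± 0.18, -0.08 ± 0.05 and -0.27 ± 0.06 and did not pass.

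In all, 153 genes were well above background on both PD0325901 arrays and on neither vehicle array, and 113 of them passed the test. The reverse held for 187 genes, of which 175 passed. Of the first kind, Krt20, a keratin of intestinal and umbrella cells, lay at -2.54 and -2.69 on the PD0325901 arrays and was at least 12.2-fold higher. Chdh, which turns choline into betaine aldehyde, was at least 8.05-fold higher, Rgs4, a brake on G protein signalling, at least 6.78-fold, Upk3b, a uroplakin, at least 4.90-fold, and Zcchc12, a coactivator of BMP and CREB signalling, at least 3.71-fold. Of the second kind, Klrb1a, a lectin receptor of natural killer cells, was at least 18.7-fold lower, Krt23, a keratin, at least 10.4-fold, and the type II cGMP-dependent kinase gene Prkg2 at least 11.6-fold. Olr1, the receptor for oxidised LDL, was at least 7.68-fold lower, and Slc26a9, an anion transporter, at least 6.82-fold. Each bound sets the bright group against, on every dim array, the higher of the lowest signal called well above background and the probe's own signal. For Zcchc12 and Slc26a9 the probe's own signal was the higher, so that the bound is the measured fold itself.

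Genes of the striated muscle sarcomere were split between large rises and a few large falls. The thick filament carries myosin heavy and light chains and myosin-binding protein C, the thin filament actin, troponin and tropomodulin, and myomesin joins thick filaments at the M-line. Of 33 tested sarcomere genes 16 rose and 6 fell, 9 and 4 of them at least 2-fold, and their median difference was 0.64. The median was 0.23 with normexp background correction, where 1 was at least 2-fold lower, and 0.17 with no filter on dim probes. Myl1, an essential light chain of fast muscle, lay at -5.87 and -5.59 with vehicle and -1.80 and -1.73 with PD0325901 and rose by 3.96 ± 0.11. Actn3, the alpha-actinin of fast fibres, lay at -3.88 and -3.70 with vehicle and 0.058 and 0.055 with PD0325901 and rose by 3.85 ± 0.07. Mybpc3, the myosin-binding protein C of heart, lay at 3.42 and 3.56 with vehicle and 5.52 and 5.67 with PD0325901 and rose by 2.10 ± 0.10. Its skeletal relative Mybpc2 rose by 2.43 ± 0.20, the cardiac troponin inhibitor gene Tnni3 by 2.40 ± 0.08, and the myomesin gene Myom2 by 2.22 ± 0.12. Tmod1, which caps the pointed end of thin filaments, rose by 1.59 ± 0.09, and the troponin C genes Tnnc1 and Tnnc2 rose by 0.84 ± 0.06 and 0.97 ± 0.12. Myh2 and Myl2, a fast heavy chain and a slow light chain, were not well above background with vehicle, and their rises were at least 4.17-fold and 2.53-fold. The sarcomeric actin genes Acta1 and Actc1 rose by 0.69 ± 0.09 and 0.64 ± 0.11. Leaving out 1 array ended the call of Actc1 (adjusted p = 0.0523 without PD0325901 replicate 2) and of Myl2 (adjusted p = 0.053 without PD0325901 replicate 1).

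The falls came from members of the same families. The heavy chain gene Myh1 was at least 5.66-fold lower and was not well above background on either PD0325901 array, and its other detected probe differed by -0.51. Myh6, the atrial heavy chain, lay at -3.64 and -3.81 with vehicle and -4.73 and -4.91 with PD0325901 and fell by 1.10 ± 0.09, and the slow troponin I gene Tnni1 fell by 1.10 ± 0.07. Mybph, another member of the myosin-binding protein family, fell by 1.23 ± 0.08. The genes for the heavy chains Myh4 and Myh7 and for the light chain Mylpf did not pass, with differences of -0.072, 0.073 and 0.0048, though the other probe of Myh4 was at -2.87. Skeletal and cardiac members, fast and slow, were thus found in both directions.

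Proteins of the Z-disc, which anchors thin filaments, and of the costamere, which ties it to the membrane, gave 15 higher and 6 lower among 31 tested genes. Des, the intermediate filament desmin, lay at -3.34 and -3.15 with vehicle and -0.32 and -0.44 with PD0325901 and rose by 2.86 ± 0.09. Abra, an actin-binding activator of SRF, and Csrp3, a muscle LIM protein, reached the background limit on neither vehicle array, and rose at least 9.16-fold and 2.39-fold. Ldb3, the Z-disc protein ZASP, was at least 4.36-fold higher. Ankrd2, a stretch-responsive ankyrin repeat protein, rose by 1.22 ± 0.07. In contrast, its relative Ankrd1 lay at 2.15 and 2.38 with vehicle and -0.66 and -0.42 with PD0325901 and fell by 2.80 ± 0.12, the calcineurin-binding Z-disc gene Myoz1 fell by 2.32 ± 0.08, and the alpha-actinin partner Pdlim5 by 0.90 ± 0.06. Sln, the sarcolipin that inhibits the calcium pump, rose by 1.71 ± 0.21, Eno3, the muscle enolase, by 1.89 ± 0.06, and Jsrp1, a protein of the sarcoplasmic reticulum junction, by 1.18 ± 0.05. They belong to a list of muscle calcium and energy genes in which 7 rose and 3 fell of 19, with 1 lower after normexp correction. That list gave 3 higher and 5 lower without PD0325901 replicate 1, and 4 and 2 without replicate 2. The other detected probe of Ldb3 differed by 0.23, and leaving out any of the 4 arrays ended its call, with an adjusted p of 0.0699 without vehicle replicate 1, 0.0564 without vehicle replicate 2, 0.0817 without PD0325901 replicate 1 and 0.0638 without PD0325901 replicate 2.

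Of 12 tested myogenic regulators, which set skeletal muscle fate, 3 rose and 4 fell. There were 0 rises and 2 falls without PD0325901 replicate 2, and 2 falls with either vehicle replicate left out. Normexp correction and quantile normalization gave 1 fall each, and of the 6 with a probe well above background on all 4 arrays 3 rose and 0 fell. Myod1 lay at -5.51 and -5.44 with vehicle and -6.63 and -5.99 with PD0325901 and fell by 0.84 ± 0.22, and Myog was not well above background on any of the 4 arrays. Msc, a repressor of myogenic factors, was at least 2.19-fold lower. Mef2a and Mef2c, members of the MEF2 family, rose by 0.49 ± 0.09 and 0.31 ± 0.06. The call of Myod1 was also lost with all arrays kept, which here and below means the 4 compared arrays. Its limma adjusted p was 0.0537 with normexp background correction, 0.108 with quantile normalization and 0.0701 with only the 4 arrays of the comparison fitted. Leaving out 1 array ended the call of Myod1 (adjusted p = 0.0932 without vehicle replicate 1 and 0.109 without vehicle replicate 2), of Mef2a (adjusted p = 0.0595 without PD0325901 replicate 2), and of Mef2c (adjusted p = 0.057 without PD0325901 replicate 1 and 0.0706 without PD0325901 replicate 2). Of 11 markers of skeletal muscle cells 0 rose and 7 fell, among them the acetylcholine receptor gene Chrna1, by 1.59 ± 0.15, and Cdh15, the muscle cadherin, by 1.52 ± 0.46, a call lost in 8 of 14 alternatives (an adjusted p of 0.181 without PD0325901 replicate 1 and 0.11 without PD0325901 replicate 2). Their summed linear level was 0.597 and 0.395 with vehicle and 0.312 and 0.300 with PD0325901. The number that fell was 2 with normexp background correction, 1 with quantile normalization, 3 with median scaling and 2 to 3 without vehicle replicate 1, PD0325901 replicate 1 or PD0325901 replicate 2. When only probes well above background on all 4 arrays were tested, 3 of the markers were left and 1 fell.

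**Figure D2:**
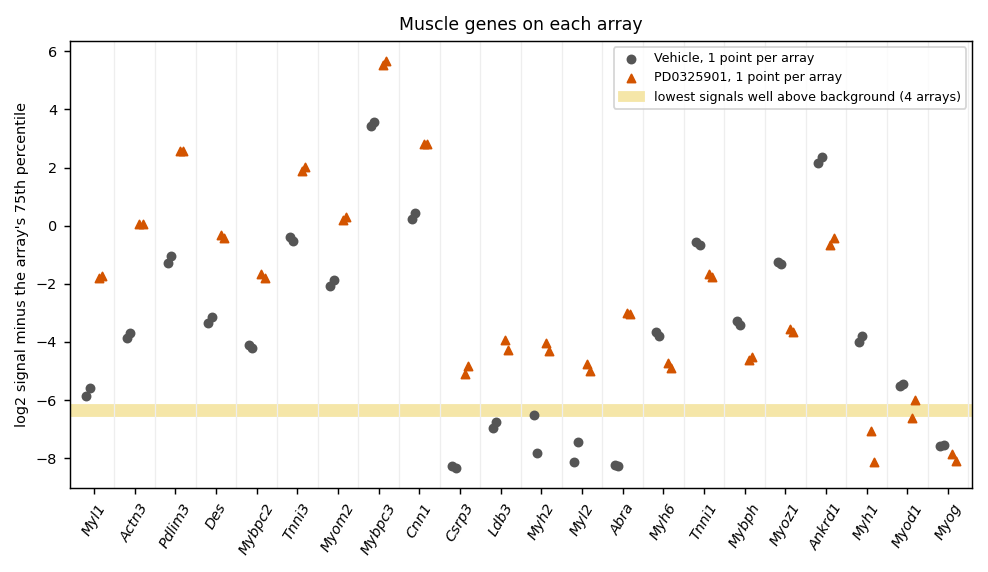
Level of muscle genes on each of the 2 vehicle arrays (grey circles) and the 2 PD0325901 arrays (orange triangles), as log2 signal minus the array's 75th percentile; the yellow band spans the lowest signals called well above background on the 4 arrays. From Myl1 to Abra the triangles lie above the circles, from Myh6 to Myod1 below them, and Myog lies under the band in both groups.

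Smooth muscle genes and the SRF machinery gave 15 higher and 7 lower of 37 tested, and 11 lower with normexp background correction. Cnn1, the calponin of smooth muscle, lay at 0.21 and 0.44 with vehicle and 2.82 and 2.80 with PD0325901 and rose by 2.48 ± 0.11. Itga8, the alpha 8 integrin, rose by 2.78 ± 0.06, Myocd, the coactivator myocardin, by 1.60 ± 0.11 (0.16 on its other probe), and Myh10, a nonmuscle myosin heavy chain, by 1.29 ± 0.04. Smaller rises were those of Acta2 (0.79, with its other probes from 0.0055 to 1.08), Csrp1 (0.76) and Lmod1 (0.73). Srf itself lay at 2.86 and 2.89 with vehicle and 2.83 and 2.92 with PD0325901 and did not pass (0.0041), nor did the coactivator genes Mrtfa (-0.016) and Mrtfb (0.15, with another probe at -1.05). Lower members were the calponin relative Tagln2, which fell by 0.67 ± 0.07, the tropomyosin gene Tpm3, by 0.53 ± 0.04, the nonmuscle myosin gene Myh9, by 0.50 ± 0.06, and Cnn2, by 0.40 ± 0.05. Tagln, a common marker of smooth muscle, did not pass (0.13).

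The promoters of these genes were searched for the CArG box on both strands in the 250 bases before and 50 bases after each annotated start (RefSeq, GRCm38.p6). A gene counted where any of its promoters held the motif. Of 11368 tested genes with a promoter, 180 (1.58%) held one. Among the sarcomere genes it was 7 of 29 (24.1%), among Z-disc and costamere genes 4 of 24 (16.7%), and among smooth muscle and SRF genes 4 of 27 (14.8%). Within the sarcomere list the motif was found in 3 of 14 genes that rose, in 0 of 6 that fell and in 4 of 9 that did not pass. Among smooth muscle and SRF genes it was found in 0 of 9 that rose, 2 of 7 that fell and 2 of 11 that did not pass. Z-disc and costamere genes gave 2 of 11, 0 of 3 and 2 of 10 in the same order. Over all genes at least 2-fold higher it was found in 4 of 418 (0.957%), and over those at least 2-fold lower in 12 of 843 (1.42%), both near the share of all genes. A match is a run of letters in this window and not a measured site. Within the ERK output list the motif was found in 1 of 16 genes that fell, Egr2, in 0 of 5 that rose and in 1 of 4 that did not pass. The promoters of Ldb3, Acta1 and Egr2 are printed 5′ to 3′ as examples, with the CArG box in capitals. Ldb3 and Acta1 rose, and Egr2, which fell, was picked after its values were seen.
Ldb3 (chr14:34588632-34588931, minus strand): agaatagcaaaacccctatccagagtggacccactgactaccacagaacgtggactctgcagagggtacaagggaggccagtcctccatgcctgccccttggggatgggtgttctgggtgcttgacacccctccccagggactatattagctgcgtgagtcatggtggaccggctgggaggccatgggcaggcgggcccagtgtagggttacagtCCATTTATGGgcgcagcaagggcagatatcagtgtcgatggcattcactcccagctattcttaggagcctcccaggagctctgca
Acta1 (chr8:123894726-123895025, minus strand): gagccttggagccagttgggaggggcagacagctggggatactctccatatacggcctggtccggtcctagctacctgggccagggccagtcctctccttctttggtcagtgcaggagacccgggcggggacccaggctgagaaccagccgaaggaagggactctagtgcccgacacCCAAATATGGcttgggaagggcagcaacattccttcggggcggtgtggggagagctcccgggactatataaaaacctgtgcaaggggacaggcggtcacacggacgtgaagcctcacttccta
Egr2 (chr10:67537316-67537615, plus strand): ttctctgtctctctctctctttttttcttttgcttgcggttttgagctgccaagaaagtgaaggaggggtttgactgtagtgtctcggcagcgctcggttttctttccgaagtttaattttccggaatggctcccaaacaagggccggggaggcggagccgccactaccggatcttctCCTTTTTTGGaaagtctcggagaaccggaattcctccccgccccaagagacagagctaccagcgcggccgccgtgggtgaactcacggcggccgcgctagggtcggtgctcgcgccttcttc
The first base of the motif lay 35 bases before the start of Ldb3, 73 before that of Acta1 and 72 before that of Egr2.

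Matrix genes were found in both directions, often within 1 family. The small leucine-rich proteoglycans, which bind collagen fibrils, gave 5 higher and 4 lower of 14 tested, and 3 of the 5 are neighbours on chromosome 13. Over probes well above background on all 4 arrays 3 of 11 rose. Ogn (osteoglycin) lay at -5.94 and -4.04 with vehicle and -1.92 and -1.94 with PD0325901 and rose by 3.06 ± 0.66, with a wide spread between the vehicle arrays, and its call was lost without 1 array, with an adjusted p of 0.0785 without PD0325901 replicate 1 and 0.0773 without PD0325901 replicate 2. Omd (osteomodulin) and Aspn (asporin) beside it rose at least 3.56-fold and 4.18-fold from below the background limit. Epyc (epiphycan), on another chromosome, lay at -2.62 and -2.66 with vehicle and 0.47 and 0.48 with PD0325901 and rose by 3.12 ± 0.10. Prelp, of the same family, lay at 2.57 and 2.52 with vehicle and -0.58 and -0.61 with PD0325901 and fell by 3.14 ± 0.04, and biglycan, Bgn, fell by 0.68 ± 0.09.

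Elastic fibre and matricellular proteins gave 16 higher and 13 lower of 42 tested. Higher were Tgfbi, a collagen-binding protein induced by TGF-beta (rose by 1.94 ± 0.07), the microfibril gene Mfap5 (by 1.89 ± 0.15), the calcium-binding protein gene Smoc1 (by 1.71 ± 0.05) and Ccn5, a CCN protein that lacks the growth factor-like C-terminal domain (by 1.67 ± 0.07). Eln, elastin itself, rose by 1.01 ± 0.14, and the crosslinking lysyl oxidase-like enzymes Loxl1 and Loxl2 rose by 1.13 ± 0.08 and 1.07 ± 0.08. Lower were Tnc, tenascin C, at 0.96 and 0.93 with vehicle and -2.06 and -2.23 with PD0325901 (fell by 3.09 ± 0.09), Thbs1, thrombospondin 1, at 2.07 and 2.25 with vehicle and -0.62 and -0.72 with PD0325901 (fell by 2.83 ± 0.09), and Ccn4, a Wnt-induced CCN protein (fell by 2.26 ± 0.08). Ltbp1, which stores TGF-beta in the matrix, fell by 1.78 ± 0.06, and Fn1, fibronectin, by 1.11 ± 0.08, with another probe at -2.28. Relatives thus differed in sign: Thbs2 and Thbs3 rose by 0.83 ± 0.07 and 0.65 ± 0.07 while Thbs1 fell, and Loxl3 was at least 2.96-fold lower.

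Collagen chains gave 7 higher and 14 lower of 36 tested (median -0.19), 11 higher with median scaling and 4 higher without PD0325901 replicate 1. The fibril-forming chain Col3a1 rose by 1.10 ± 0.10 and the fibril-associated Col14a1 by 1.19 ± 0.09. The short-chain collagen gene Col8a1 lay at -1.18 and -1.05 with vehicle and -4.05 and -4.15 with PD0325901 and fell by 2.98 ± 0.14, and the membrane collagen gene Col13a1 fell by 1.86 ± 0.12. Of 13 ADAMTS and ADAMTS-like genes 6 rose and 4 fell, and 2 fell without PD0325901 replicate 2 or with only the 4 arrays of the comparison fitted: besides Adamts15, the aggrecan-cleaving Adamts5 rose by 2.23 ± 0.15, whereas Adamts4 fell by 0.97 ± 0.08. Of 4 tissue inhibitors of metalloproteinases 3 fell, Timp1 by 1.30 ± 0.07 and Timp4 by 1.16 ± 0.11 among them.

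Hyaluronan genes passed at near the shares of all genes, 21.7% higher and 30.4% lower against 24.1% and 29.3%. The synthase gene Has2 fell, as given above, whereas Has1 rose by 1.28 ± 0.14. The hyaluronidase genes Hyal1 and Hyal2, which degrade the polymer, rose by 1.09 ± 0.17 and 0.81 ± 0.04. The hyaluronan receptor gene Cd44 lay at 1.52 and 1.5 with vehicle and 0.56 and 0.54 with PD0325901 and fell by 0.96 ± 0.04, and Ptx3, a pentraxin that helps to link hyaluronan, fell by 1.39 ± 0.10. In all 5 of 23 tested members rose and 7 fell, and 3 rose with either PD0325901 replicate left out. Laminin and integrin genes gave 9 higher and 9 lower of 28. The laminin-binding integrin subunits Itga6 and Itga3 fell by 1.48 ± 0.05 and 1.03 ± 0.07, with the laminin chain Lama1 (-1.25), and Itga7, another laminin-binding subunit, rose by 0.76 ± 0.09. Itga4, a subunit of fibronectin and VCAM1 receptors, rose by 1.81 ± 0.18, and Itgb1, the common partner, did not pass (-0.12).

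In the plasminogen system the receptor of urokinase was lower, and urokinase itself did not pass. Plaur, the urokinase receptor, lay at 2.28 and 2.25 with vehicle and 0.38 and 0.38 with PD0325901 and fell by 1.89 ± 0.04. Plau, the urokinase gene, differed by 0.041. Among 23 genes of the group 7 rose and 7 fell, and 3 to 4 rose without vehicle replicate 1, PD0325901 replicate 1 or PD0325901 replicate 2.

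Prostaglandin genes were more often lower than higher. Phospholipase A2 frees arachidonic acid, the cyclooxygenases Ptgs1 and Ptgs2 turn it into prostaglandin H2, and terminal synthases make the single prostaglandins, which act on G protein-coupled receptors. Of 32 tested genes 7 rose and 20 fell, 2 and 11 of them at least 2-fold (median -0.32). Both cyclooxygenase genes fell: Ptgs1 lay at 0.94 and 0.88 with vehicle and -1.28 and -1.30 with PD0325901 and fell by 2.20 ± 0.06, and Ptgs2 lay at -1.30 and -1.23 with vehicle and -4.08 and -4.46 with PD0325901 and fell by 3.01 ± 0.14. Ptgr1, which inactivates prostaglandins and leukotriene B4, fell by 3.66 ± 0.06 from a level of 6.20 and 6.09. The progesterone- and prostaglandin-reducing Akr1c18 fell by 2.18 ± 0.38, the thromboxane synthase gene Tbxas1 by 1.41 ± 0.36, and the uptake transporter gene Slco2a1 by 1.43 ± 0.10. Of the receptors, Ptger4 was at least 4.33-fold lower, Ptger2 fell by 1.42 ± 0.11, and the thromboxane receptor gene Tbxa2r rose by 1.88 ± 0.37. The prostaglandin D synthase gene Ptgds lay at 0.31 and 0.33 with vehicle and 2.0 and 2.0 with PD0325901 and rose by 1.68 ± 0.04. With each array scaled on its median 14 of the 32 genes fell and 7 rose. There were 12 falls and 5 rises without PD0325901 replicate 1, and 12 and 4 without replicate 2. Tbxas1 differed by -0.19 on its other probe. The call of Tbxas1 was lost with an adjusted p of 0.0638 with quantile normalization and 0.0625 with only the 4 arrays of the comparison fitted. Leaving out 1 array ended the call of Tbxas1 (adjusted p = 0.0606 without vehicle replicate 1, 0.0556 without PD0325901 replicate 1 and 0.12 without PD0325901 replicate 2), and of Tbxa2r (adjusted p = 0.0513 without vehicle replicate 1, 0.0671 without PD0325901 replicate 1 and 0.0639 without PD0325901 replicate 2).

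Interleukin and TNF ligand genes gave 4 higher and 15 lower of 29 tested, and chemokines 4 and 10 of 24, with 2 higher without vehicle replicate 1. Il11, a cytokine of the IL-6 family, lay at -0.18 and -0.14 with vehicle and -3.76 and -3.59 with PD0325901 and fell by 3.52 ± 0.07. Il33, an alarmin kept in the nucleus, lay at -0.17 and -0.36 with vehicle and -2.19 and -2.13 with PD0325901 and fell by 1.90 ± 0.07, and Il34, a ligand of the CSF1 receptor, fell by 1.59 ± 0.04. Il1a was at least 1.60-fold lower. Among chemokines Cxcl14 lay at 1.62 and 1.61 with vehicle and -1.29 and -1.41 with PD0325901 and fell by 2.96 ± 0.10, Cxcl16 fell by 1.90 ± 0.05 and Ccl2, which attracts monocytes, by 1.17 ± 0.05. Higher were Cxcl10, an interferon-induced chemokine, by 1.11 ± 0.08, the lymphotoxin gene Ltb by 1.32 ± 0.06 and Il18 by 0.56 ± 0.05. The receptors moved too, with 9 higher and 15 lower of 30 interleukin receptor genes. Il1r1, the signalling receptor for IL-1, lay at 1.65 and 1.65 with vehicle and 0.12 and 0.19 with PD0325901 and fell by 1.5 ± 0.05, and beside it on chromosome 1 Il1r2, the decoy receptor, and Il1rl1, the receptor for IL-33, were at least 1.87-fold and 2.94-fold lower. The call of Il1r2 was lost without 1 array, with an adjusted p of 0.0613 without PD0325901 replicate 1. Il17rb, a receptor for IL-25, was at least 2.04-fold higher, and Il15ra rose by 1.62 ± 0.06. The receptor gene Tnfrsf1a fell by 1.33 ± 0.04, while Tnfrsf19 rose by 2.63 ± 0.38. Of 8 SOCS genes, whose proteins damp cytokine receptors, 5 fell, Socs5 by 1.89 ± 0.06 and Socs3 by 1.09 ± 0.04. Of the 11 macrophage markers given above 4 fell (36.4%) and 2 rose (18.2%), near the shares of 29.3% and 24.1% over all genes.

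Interferon-stimulated genes went the other way, with 28 higher and 4 lower of 50 tested (median 0.39). The 4 lower were 2 with median scaling or with the replicate number as a block, and 1 without PD0325901 replicate 1. Interferons act through transcription factors that bind the interferon-stimulated response element, and type II interferon induces GTPases of the GBP and IRG families. Iigp1, an IRG GTPase, lay at -2.30 and -2.32 with vehicle and -0.17 and -0.11 with PD0325901 and rose by 2.17 ± 0.09 (limma adjusted p = 0.000215). Cmpk2, a nucleotide kinase beside Rsad2, rose by 1.72 ± 0.06, Gbp3 by 1.64 ± 0.13, Irgm2 by 1.18 ± 0.09 and Ifit1, which binds foreign RNA, by 1.23 ± 0.27. Without 1 vehicle array the call of Ifit1 was lost, with an adjusted p of 0.0701 without vehicle replicate 1 and 0.0656 without vehicle replicate 2. The sensor gene Ddx58 (RIG-I) rose by 0.87 ± 0.09 and the oligoadenylate synthetase gene Oas1a by 0.53 ± 0.05. Not all members followed. Counted as a family by name, the 13 tested genes named Ifi gave 2 higher and 6 lower (median -0.31). Of these 0 and 4 were at least 2-fold. Isg15 (0.49) and Ifit3 (0.67) did not pass, Ifitm3 fell by 0.50 ± 0.13, a call lost without 1 array (an adjusted p of 0.0605 without vehicle replicate 1, 0.083 without PD0325901 replicate 1 and 0.124 without PD0325901 replicate 2) and with all arrays kept (an adjusted p of 0.0506 with median scaling, 0.0517 with only the 4 arrays of the comparison fitted and 0.0533 with the replicate number as a block), and Ifi47, an IRG GTPase, lay at -2.56 and -2.44 with vehicle and -4.92 and -4.84 with PD0325901 and fell by 2.38 ± 0.06. Of 20 MHC genes 9 rose and 3 fell. The class I peptide loading gene Tapbp rose by 0.46 ± 0.04, B2m by 0.28 ± 0.06, and Ciita, the master regulator of class II, lay at -4.52 and -4.05 with vehicle and -6.25 and -6.14 with PD0325901 and fell by 1.91 ± 0.17. Without PD0325901 replicate 1 the count of MHC genes that rose was 3, and without replicate 2 it was 4, and the call of B2m was then lost in both cases, with an adjusted p of 0.0645 without PD0325901 replicate 1 and 0.0793 without PD0325901 replicate 2. Usp18, which restrains the interferon receptor, rose by 2.04 ± 0.16 with PD0325901 and differed by 0.43 ± 0.16 with bFGF, which did not pass (limma adjusted p = 0.131). Gbp3 also rose with bFGF, by 0.79 ± 0.13 (adjusted p = 0.0258), against the same vehicle arrays.

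The response element was searched as GAAANNGAAA on both strands of the same promoters, and it was found in 434 of 11368 (3.82%). It was found in 22 of 38 interferon-stimulated genes (57.9%) and, within that list, in 12 of the 19 with a promoter that rose, in 9 of the 15 that did not pass and in 1 of the 4 that fell. Among all genes at least 2-fold higher it was found in 27 of 418 (6.46%) and among those at least 2-fold lower in 41 of 843 (4.86%). The promoters of Rsad2 and Ifit1, both higher, are printed with the element in capitals because they show 1 and 2 copies of it.
Rsad2 (chr12:26456403-26456702, minus strand): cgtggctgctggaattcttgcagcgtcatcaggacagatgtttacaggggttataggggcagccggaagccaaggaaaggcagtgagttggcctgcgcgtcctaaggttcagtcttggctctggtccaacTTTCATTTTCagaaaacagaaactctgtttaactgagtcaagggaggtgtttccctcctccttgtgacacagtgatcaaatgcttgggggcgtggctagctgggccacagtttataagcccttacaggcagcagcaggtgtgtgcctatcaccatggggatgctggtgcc
Ifit1 (chr19:34640639-34640938, plus strand): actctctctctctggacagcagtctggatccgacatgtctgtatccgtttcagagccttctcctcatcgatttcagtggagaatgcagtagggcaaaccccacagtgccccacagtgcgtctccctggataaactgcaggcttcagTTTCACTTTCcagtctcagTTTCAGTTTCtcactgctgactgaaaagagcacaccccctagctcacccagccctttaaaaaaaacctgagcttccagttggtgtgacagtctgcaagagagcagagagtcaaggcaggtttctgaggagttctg
Rsad2 lay at -4.94 and -4.84 with vehicle and -3.33 and -2.54 with PD0325901 and rose by 1.96 ± 0.34, and its element began at position -120 from the start. In Ifit1 the first copy lay at position -104 from the start.

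**Figure D3:**
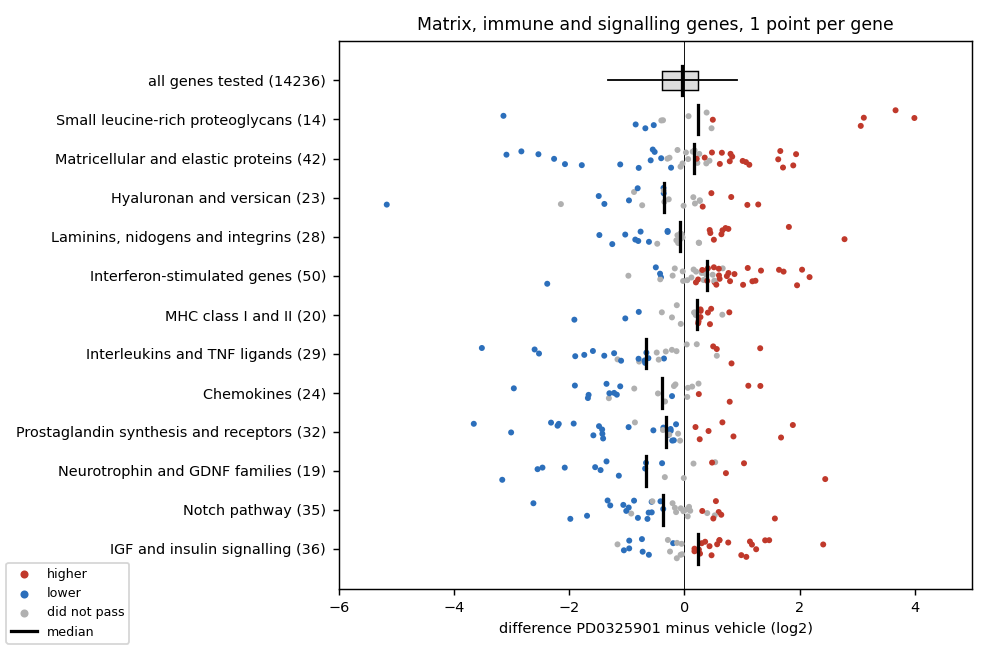
Difference between PD0325901 and vehicle on the log2 scale for each tested gene of 12 lists, with the number tested in brackets, coloured by the test; black bars are medians, and the box and line for all 14236 genes span the middle 50% and 90%. Interferon genes lie mostly to the right, and interleukins, prostaglandin genes, neurotrophins and Notch genes mostly to the left, each with exceptions on the other side.

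Growth factor families outside ERK feedback held large falls and some rises. In the neurotrophin and GDNF families 4 rose and 11 fell of 19 tested (median -0.67). Ngfr, the p75 receptor, lay at -0.45 and -0.40 with vehicle and -3.60 and -3.58 with PD0325901 and fell by 3.16 ± 0.05 (-0.85 on its other probe), and Bdnf fell by 1.35 ± 0.13. Gfra1, the coreceptor for GDNF, was at least 1.14-fold lower. Ptn, the heparin-binding factor pleiotrophin, went against the group: it lay at -4.47 and -4.46 with vehicle and -2.12 and -1.93 with PD0325901 and rose by 2.44 ± 0.14, and its receptor Alk rose by 0.72 ± 0.10. FGF ligand genes split into 4 higher and 6 lower of 17 (23.5% and 35.3%, against 24.1% and 29.3% over all genes). Fgf5, Fgf9 and Fgf16 were not well above background with vehicle and were at least 4.65-fold, 3.29-fold and 1.40-fold higher, and Fgf7, which signals from mesenchyme to epithelium, was at least 2.71-fold lower. The call of Fgf5 was lost without 1 array, with an adjusted p of 0.0625 without PD0325901 replicate 1 and 0.0657 without PD0325901 replicate 2.

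In the TGF-beta superfamily 12 genes rose and 19 fell of 45, 4 and 10 of them at least 2-fold. Grem1, an antagonist of BMPs, was at least 6.24-fold lower. Tgfb1 lay at 0.11 and 0.11 with vehicle and -1.07 and -1.11 with PD0325901 and fell by 1.20 ± 0.04, whereas Tgfb2 and Tgfb3 rose by 1.09 ± 0.06 and 0.66 ± 0.04. The inhibin and activin beta subunit genes Inhba and Inhbb fell by 1.75 ± 0.05 and 1.44 ± 0.06. Id1 and Id3, inhibitors of bHLH factors, fell by 1.39 ± 0.11 and 1.65 ± 0.16, and the inhibitory Smads Smad6 and Smad7 by 1.14 ± 0.06 and 0.97 ± 0.05. Id4 rose by 0.45 ± 0.06, and the pseudoreceptor gene Bambi by 1.26 ± 0.06.

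Notch pathway genes gave 6 higher and 16 lower of 35, and 3 higher without PD0325901 replicate 2. The ligand gene Jag1 lay at 1.56 and 1.75 with vehicle and -0.039 and -0.033 with PD0325901 and fell by 1.69 ± 0.07. The target genes Heyl and Hes1 fell by 2.62 ± 0.08 and 1.33 ± 0.06, and Nrarp, a feedback target, was at least 1.51-fold lower. The receptors Notch1 and Notch2 fell by 0.57 ± 0.04 and 0.57 ± 0.10, while the target Hey1 rose by 0.64 ± 0.11. Leaving out 1 array ended the call of Hey1 (adjusted p = 0.0551 without PD0325901 replicate 2), and of Notch2 (adjusted p = 0.0529 without PD0325901 replicate 1 and 0.0534 without PD0325901 replicate 2). Wnt genes showed no such lean, with 16 higher and 17 lower of 50. Among ligands Wnt2 lay at -3.08 and -2.91 with vehicle and -6.06 and -5.54 with PD0325901 and fell by 2.80 ± 0.19, Wnt6 and Wnt7b fell by 1.71 ± 0.05 and 1.58 ± 0.09, and Wnt10b and Wnt5a rose by 1.30 ± 0.07 and 1.04 ± 0.07. Rspo1, which amplifies Wnt signals, rose by 1.68 ± 0.42, with the feedback genes Axin2 (0.74) and Rnf43 (0.97). The call of Rspo1 was lost without 1 array, with an adjusted p of 0.0976 without vehicle replicate 2 and 0.0948 without PD0325901 replicate 1.

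IGF and insulin genes were more often higher, 20 against 7 lower of 36, and 4 were lower with either PD0325901 replicate left out. Stc1, a stanniocalcin, lay at -4.19 and -3.76 with vehicle and -1.86 and -1.26 with PD0325901 and rose by 2.41 ± 0.28, and Igfbp3, the main IGF carrier of serum, rose by 1.47 ± 0.06. Foxo3, a forkhead factor restrained by insulin signalling, rose by 1.25 ± 0.29, the phosphoinositide kinase regulatory subunits Pik3r1 and Pik3r3 by 0.99 ± 0.05 and 1.14 ± 0.06, and the receptor adaptor Grb14 by 1.17 ± 0.05. The call of Foxo3 was lost with all arrays kept (an adjusted p of 0.0521 with only the 4 arrays of the comparison fitted and 0.0514 with the replicate number as a block) and without 1 array (an adjusted p of 0.0922 without vehicle replicate 1 and 0.0541 without vehicle replicate 2). The docking protein gene Irs1 lay at -3.88 and -4.21 with vehicle and -5.25 and -4.94 with PD0325901 and fell by 1.05 ± 0.18, and Igf1 fell by 0.72 ± 0.07. Axon guidance genes gave 19 higher and 17 lower of 57 (33.3% and 29.8%, against 24.1% and 29.3% over all genes). Among them the semaphorins were found at both ends. Sema4f, Sema3c and Sema4g rose by 2.30 ± 0.05, 1.32 ± 0.05 and 1.0 ± 0.08, and Sema3f, Sema4a and Sema3e fell by 2.27 ± 0.24, 1.89 ± 0.08 and 1.72 ± 0.07. The netrin receptor gene Unc5b lay at -0.046 and -0.19 with vehicle and -2.59 and -2.69 with PD0325901 and fell by 2.52 ± 0.11, and Ntn4, a netrin of basement membranes, rose by 1.46 ± 0.07.

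Members of several transcription factor families were found in both directions. Of the forkhead genes 31.25% rose and 28.1% fell, near the shares of 24.1% and 29.3% over all genes. Forkhead genes gave 10 higher and 9 lower of 32, with 5 higher without PD0325901 replicate 2. Foxf2 lay at -1.73 and -2.47 with vehicle and -5.35 and -5.55 with PD0325901 and fell by 3.35 ± 0.26, Foxs1 fell by 3.48 ± 0.04 and Foxf1 was at least 3.17-fold lower, a call lost without 1 array (an adjusted p of 0.0533 without PD0325901 replicate 1 and 0.0794 without PD0325901 replicate 2). Tbx3, a T-box repressor, fell by 2.42 ± 0.07. Of 39 nuclear receptor genes 16 rose and 11 fell. The oestrogen receptor gene Esr1 rose by 1.56 ± 0.06 and the vitamin D receptor gene Vdr by 1.07 ± 0.04. Nr0b2, the orphan repressor SHP, lay at -1.90 and -2.56 with vehicle and -4.56 and -4.27 with PD0325901 and fell by 2.19 ± 0.25. Thrb, a thyroid hormone receptor, fell by 0.75 ± 0.09 and Thra rose by 0.35 ± 0.04. Among Krüppel-like factors Klf4 and Klf9 rose by 1.31 ± 0.10 and 0.82 ± 0.05 and Klf5 fell by 1.40 ± 0.05. In the circadian clock Bhlhe40 and Per2 fell by 1.65 ± 0.06 and 0.96 ± 0.09, with 10 higher and 6 lower of 23.

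Retinoid genes were found in both directions, with 8 higher and 8 lower of 28. These shares, 28.6% each, were near those of all genes, 24.1% higher and 29.3% lower. The retinol dehydrogenase gene Rdh10, which makes retinal, lay at -1.92 and -1.82 with vehicle and -0.63 and -0.57 with PD0325901 and rose by 1.27 ± 0.06. The retinol carrier and receptor genes Rbp4 and Stra6 rose by 1.40 ± 0.14 and 0.91 ± 0.05. Of the retinal dehydrogenases, Aldh1a3 lay at 1.98 and 1.76 with vehicle and -1.77 and -1.88 with PD0325901 and fell by 3.69 ± 0.09 while Aldh1a2 rose by 0.55 ± 0.04. Dhrs3, which reduces retinal back to retinol, rose by 1.24 ± 0.07. Rarb rose by 1.22 ± 0.07 and Rara fell by 0.90 ± 0.05. Steroid genes gave 4 higher and 13 lower of 31, with 7 higher after median scaling and 6 to 7 lower when vehicle replicate 1 or either PD0325901 replicate was left out, and Hsd17b12, a dehydrogenase of fatty acid elongation and oestradiol formation, fell by 1.35 ± 0.04.

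Genes of fatty acid use and storage were more often higher, 31 against 13 lower of 56 tested (median 0.26). Fabp3, the cytosolic fatty acid carrier of muscle, lay at 2.58 and 2.67 with vehicle and 5.48 and 5.48 with PD0325901 and rose by 2.85 ± 0.05. Among lipid droplet genes Plin1, a perilipin of adipocytes, rose by 2.38 ± 0.05, Plin4 by 1.87 ± 0.33 (an adjusted p of 0.0547 without PD0325901 replicate 1), Plin5 by 0.79 ± 0.10 and Cidea, which helps droplets to fuse, by 2.51 ± 0.09. The mitochondrial oxidation genes Acaa2 (0.71), Acadm (0.65), Cpt2 (0.64) and Acadl (0.52) rose by less. Ppara, a nuclear receptor for fatty acids, rose by 0.77 ± 0.08. Falls were those of Ppargc1b, a coactivator of mitochondrial genes, at -0.82 and -1.14 with vehicle and -4.04 and -3.92 with PD0325901 (fell by 3.0 ± 0.12), Angptl4, an inhibitor of lipoprotein lipase (by 2.46 ± 0.06), the lipase gene Lpl (by 1.13 ± 0.05), and the acyl-CoA synthetase genes Acsl4 and Acsl5 (by 1.94 ± 0.07 and 1.27 ± 0.07).

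Differences in the list of respiratory chain complex I and ATP synthase genes were small. There 6 genes rose and 12 fell of 71, and the median size of a difference was 0.069, against 0.30 over all genes. With each array scaled on its median 14 of the 71 rose and 3 fell, so the direction of these small differences rests on the scaling. There were 2 rises and 2 falls without PD0325901 replicate 1, 1 and 3 without replicate 2, and 5 falls without vehicle replicate 1. None of the 71 reached 2-fold. Cytochrome oxidase subunits, counted as a family by name, gave 3 higher and 2 lower of 18. Their median size of a difference was 0.16, with a range from -0.84 to 0.91.

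Ribosome biogenesis genes had the largest share of falls of the function lists described here: 1 rose and 42 fell of 57, with a median of -0.31, and 30 fell with median scaling. There were 26 falls without PD0325901 replicate 1. The products of these genes make, modify and process ribosomal RNA in the nucleolus. Nop58 and Nop56, core proteins of the box C/D particles, fell by 1.31 ± 0.04 and 0.66 ± 0.05, and Gar1 and Dkc1, of the box H/ACA particles, by 1.09 ± 0.06 and 0.93 ± 0.05. Nop58 lay at 3.96 and 3.94 with vehicle and 2.61 and 2.66 with PD0325901. Nolc1 fell by 0.75 ± 0.05, Ncl, nucleolin, by 0.38 ± 0.07 (an adjusted p of 0.0516 without PD0325901 replicate 1 and 0.0529 without PD0325901 replicate 2), and Npm1, nucleophosmin, by 0.38 ± 0.05. The 1 gene that rose was Ubtf, a factor of RNA polymerase I, by 0.13 ± 0.04, and it did not pass without any one of the 4 arrays (an adjusted p of 0.0859 without vehicle replicate 1, 0.0826 without vehicle replicate 2, 0.161 without PD0325901 replicate 1 and 0.173 without PD0325901 replicate 2). The ribosomal proteins themselves differed by less. Of 45 large subunit genes 14 fell and 0 rose (median -0.14), and of 30 small subunit genes 7 fell and 0 rose, and with median scaling 5 and 2 fell. Quantile normalization gave 7 and 1 falls, the replicate number as a block 12 and 4, and 4 small subunit genes fell with either vehicle replicate left out. With PD0325901 replicate 1 left out 2 large and 2 small subunit genes fell, and with replicate 2 left out these counts were 4 and 1. Mitochondrial ribosomal proteins gave 3 higher and 23 lower of 76, 12 and 10 with median scaling, and 0 higher with 5 and 8 lower without PD0325901 replicate 1 and 2.

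Lysosome and autophagy genes gave 30 higher and 5 lower of 61 (median 0.18), nearly all under 2-fold. The cathepsin genes Ctsf and Ctso rose by 1.31 ± 0.05 and 0.86 ± 0.05. The autophagosome proteins Gabarapl1, Map1lc3a and Map1lc3b rose by 0.76 ± 0.05, 0.72 ± 0.05 and 0.56 ± 0.04, and the kinases Ulk1 and Ulk2, which start autophagy, by 0.62 ± 0.04 and 0.58 ± 0.04. Npc1, a cholesterol exporter of lysosomes, rose by 0.57 ± 0.06. Lgmn, the asparagine protease legumain, lay at 5.44 and 5.54 with vehicle and 3.44 and 3.42 with PD0325901 and fell by 2.06 ± 0.07, and Ctsc fell by 1.11 ± 0.07. Without PD0325901 replicate 2 the list gave 18 higher.

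Antioxidant genes gave 10 higher and 25 lower of 54, and with median scaling 13 and 17. Without PD0325901 replicate 1 they were 6 and 15, and with replicate 2 left out 6 and 16. Of its lower members, chosen after their values were seen, several are known as targets of the factor NRF2: Osgin1 fell by 2.44 ± 0.10, Nqo1 by 1.12 ± 0.14, Prdx1 by 1.0 ± 0.05, Gsr by 0.63 ± 0.05, Srxn1 by 0.56 ± 0.05 and Gclm by 0.47 ± 0.04. The NRF2 gene Nfe2l2 differed by -0.56, which passed. Slc7a11, the cystine importer that feeds glutathione, lay at -4.68 and -4.77 with vehicle and -5.92 and -6.33 with PD0325901 and fell by 1.40 ± 0.17. Hmox1, another such target, fell by 0.14 ± 0.04, a call lost in 9 of 14 alternatives. The secreted peroxidase gene Gpx3 went the other way, at -3.59 and -4.34 with vehicle and -1.82 and -1.92 with PD0325901, and rose by 2.10 ± 0.29. In metal handling, where 6 rose and 18 fell of 41, the metallothionein genes Mt1 and Mt2 rose by 0.96 ± 0.04 and 1.03 ± 0.04 and the zinc and manganese importer Slc39a8 by 1.42 ± 0.07. The iron carrier Trf fell by 1.12 ± 0.06 and the copper exporter Atp7a by 0.80 ± 0.06.

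Stress pathways gave mixed signs. Genes of the integrated stress response, which ATF4 drives, gave 11 higher and 21 lower of 45. Atf4 fell by 0.53 ± 0.05, with its targets Asns (-0.71) and Mthfd2 (-1.18), while Atf3 lay at 1.31 and 1.33 with vehicle and 3.20 and 3.19 with PD0325901 and rose by 1.87 ± 0.04 and Ddit3 rose by 0.80 ± 0.05. Of the amino acid transporters of the same programme, Slc7a5 fell by 0.87 ± 0.04, Slc1a5 by 1.02 ± 0.07 and Slc7a1 by 0.84 ± 0.09. Sesn1 and Sesn3, sestrins induced by p53 and FOXO factors, rose by 1.16 ± 0.06 and 1.34 ± 0.05. Among chaperones 14 rose and 15 fell of 61, with 9 falls after median scaling, and 8 and 9 without PD0325901 replicate 1 and 2. The inducible Hsp70 genes Hspa1a and Hspa1b, near-identical copies that can share signal, lay at 0.33 and 0.29 with vehicle and 2.98 and 2.98 with PD0325901 and at -1.39 and -1.38 with vehicle and 1.26 and 1.25 with PD0325901, and both were higher. Of 7 small heat shock proteins 5 rose and 0 fell: Hspb7 by 2.06 ± 0.09, Hspb2 by 1.40 ± 0.09, Cryab by 1.08 ± 0.05, Hspb6 by 0.95 ± 0.06 and Hspb1 by 0.52 ± 0.07. The major chaperones Hsp90aa1 (0.05), Hspa5 (-0.037) and Hsph1 (0.084) did not pass, nor did Hsf1, the heat shock factor (0.021). Fkbp5 and Fkbp4, cochaperones of steroid receptors, fell by 1.37 ± 0.05 and 1.20 ± 0.06.

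Genes of p53 targets and the BCL2 family gave 19 higher and 7 lower of 40 (median 0.18), and 4 and 3 were lower without PD0325901 replicate 1 and 2. 4 genes of BH3-only proteins, which promote cell death, rose, Hrk by 1.25 ± 0.11, Bcl2l11 (BIM) by 0.74 ± 0.08, Bbc3 (PUMA) by 0.74 ± 0.06 and Bid by 0.57 ± 0.04. Bcl2, which opposes them, lay at 0.20 and 0.38 with vehicle and -0.63 and -0.53 with PD0325901 and fell by 0.87 ± 0.08. The inhibitor gene Cdkn1a rose by 0.52 ± 0.04, and Mdm2 (0.14) did not pass. The kinase genes Plk3 and Plk2 fell, Plk2 by 1.45 ± 0.06.

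**Figure D4:**
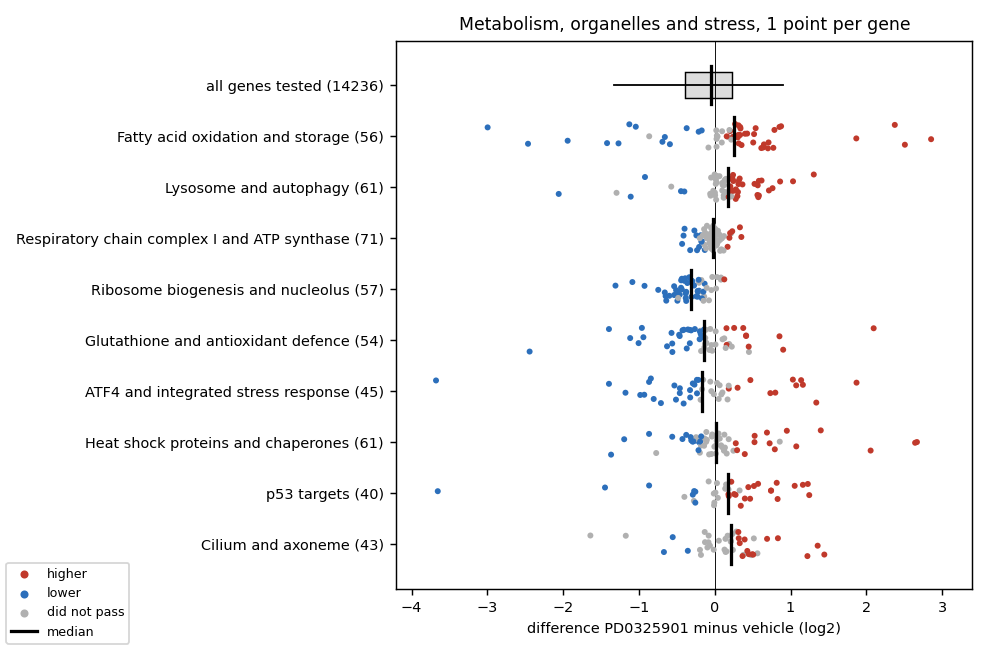
Difference between PD0325901 and vehicle on the log2 scale for each tested gene of 9 lists of metabolism, organelles and stress, with the number tested in brackets, coloured by the test; black bars are medians, and the box and line for all 14236 genes span the middle 50% and 90%. The list of respiratory chain complex I and ATP synthase is narrow around 0, ribosome biogenesis lies to the left, and lysosomal and fatty acid genes lie mostly to the right.

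Potassium channel genes gave 13 higher and 9 lower of 35, and 5 lower without PD0325901 replicate 1. Kcnn4, a calcium-activated channel, lay at -2.66 and -2.60 with vehicle and -6.15 and -6.33 with PD0325901 and fell by 3.61 ± 0.09, and its relative Kcnn2 lay at -4.80 and -4.48 with vehicle and -2.95 and -2.89 with PD0325901 and rose by 1.73 ± 0.12. The calcium-permeable TRP channel gene Trpc6 fell by 3.15 ± 0.19. Of 12 connexin genes 1 rose and 6 fell. Gja5 fell by 1.78 ± 0.22 on its brightest probe and Gjb2 by 1.10 ± 0.12, while Gja1 (connexin 43), the main connexin of Sertoli cells, rose by 0.47 ± 0.06. The other probe of Gja5, well above background on all 4 arrays, was at -0.65 and did not pass (limma adjusted p = 0.13). Of the claudins, Cldn11, which forms the Sertoli cell barrier, did not pass (0.16), and Ocln, occludin, rose by 0.43 ± 0.04 (1.45 on its other probe). Cilium and axoneme genes gave 14 higher and 3 lower of 43, and 24 higher with median scaling. Foxj1, the factor that drives motile cilia, lay at -3.28 and -3.15 with vehicle and -1.80 and -1.91 with PD0325901 and rose by 1.36 ± 0.07, with Tppp3 (1.45) and Ccdc39 (1.22). The cilium list gave 7 higher and 1 lower without PD0325901 replicate 1, 8 and 0 without replicate 2, and 5 lower without vehicle replicate 2. Of 266 zinc finger genes named Zfp 92 rose and 37 fell, 2 and 3 of them at least 2-fold, with a median of 0.10. With median scaling 128 rose and 26 fell, and 53 and 54 rose, and 23 fell each time, without PD0325901 replicate 1 and 2.

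Cell surface and phosphatase families outside these lists also held large changes. Adam19, a metalloprotease of the cell surface, fell by 2.90 ± 0.08 (-0.89 on its other probe) and Adam33 rose by 1.59 ± 0.19. The receptor phosphatase gene Ptprb fell by 1.84 ± 0.17, and Ptpn13, a large cytosolic phosphatase, by 2.45 ± 0.05. Arhgap6, which encodes a GTPase-activating protein, fell by 1.69 ± 0.12. Prkg1, the type I cGMP-dependent kinase, lay at -1.41 and -1.11 with vehicle and 0.76 and 0.76 with PD0325901 and rose by 2.02 ± 0.12, opposite in sign to Prkg2. In the RGS family, which speeds the shut-off of G proteins, Rgs16 lay at -1.62 and -1.81 with vehicle and -5.31 and -5.10 with PD0325901 and fell by 3.50 ± 0.12, and Rgs20 and Rgs17 fell by 2.44 ± 0.16 and 2.01 ± 0.08, opposite in sign to Rgs4. The drug efflux pump gene Abcb1a was at least 1.91-fold lower, and its near copy Abcb1b fell by 0.52 ± 0.06.

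Some large differences came from genes that lie side by side. There were 26 runs of 3 or more neighbouring tested genes that all passed in 1 direction with at least 2-fold differences. On chromosome 1 the receptors Il1r2, Il1r1 and Il1rl1 were followed by the sodium-proton exchangers Slc9a4 and Slc9a2, all lower, with Slc9a4 at -6.01 and -6.76 with vehicle and -8.24 and -8.13 with PD0325901. On chromosome 13 the run was Aspn, Omd and Ogn. On chromosome 15 Cyp2d22, Cyp2d10, Cyp2d9 and Cyp2d12, cytochromes of 1 cluster whose close sequences can share signal, were lower, Cyp2d22 by 2.95 ± 0.05. On chromosome 3 the cornified envelope genes Lce1f, Lce1g, Lce1i and Kprp were lower, a call lost for Kprp with an adjusted p of 0.0525 without PD0325901 replicate 1. The detected probes of Lce1g disagreed in size, at -5.96 and -1.22. On chromosome 5 the EGF receptor ligand genes Epgn, Ereg and Areg were lower. Epgn, the ligand outside the ERK feedback list, lay at -5.90 and -6.10 with vehicle and -7.50 and -6.97 with PD0325901, and with normexp background correction it did not pass, nor did Slc9a4. On chromosome 6 the lectin receptor genes Klra5, Klra7 and Klra3, also close copies of each other, were at least 1.44-fold, 3.17-fold and 1.28-fold lower, and the call of Klra5 was lost without 1 array (an adjusted p of 0.13 without PD0325901 replicate 1 and 0.112 without PD0325901 replicate 2) and with all arrays kept (an adjusted p of 0.0602 with normexp background correction, 0.138 with quantile normalization, 0.0746 with only the 4 arrays of the comparison fitted and 0.0548 with the replicate number as a block). On chromosome 9 Fli1 and Ets1, neighbouring ETS factors, fell by 1.34 ± 0.13 and 1.09 ± 0.04.

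The olfactory receptor genes showed an almost one-sided pattern. They encode the odorant receptors of nasal neurons and are at most faintly expressed in other tissues. Of 451 tested, 4 rose and 172 fell, 101 of them at least 2-fold, with a median of -0.78, but 193 were not well above background on any of the 4 arrays. Dim genes of other kinds leaned the same way: of the 645 other genes not well above background on any of the 4 arrays 18 rose and 193 fell, with a median of -0.53. The lean of the olfactory receptors was also found at brighter signal, and the part of dim signal in it was not tested. Of the 124 that were well above background on all 4 arrays 0 rose and 60 fell (48.4%), with a median of -0.74. Of the other genes of that class 28.5% fell, with a median of -0.010. Genes were also matched by their level on the vehicle arrays, which themselves enter the difference. At a level from -4 to -3, 22 of 31 olfactory receptor genes fell (median -0.91). Of the other genes there 273 of 942 fell (median -0.046). From -6 to -5 the shares that fell were 51.1% of these receptors and 30.6% of other genes (medians -0.87 and -0.32). From -5 to -4 they were 50.7% and 33.0% (medians -0.82 and -0.24), and from -3 to -2 66.7% and 27.2% (medians -0.83 and 0.018). Olfr522 lay at -3.33 and -3.56 with vehicle and -5.21 and -5.21 with PD0325901, and Olfr43 at -2.31 and -2.73 with vehicle and -4.0 and -4.07 with PD0325901. One of the 4 that rose, Olfr78, an acid-sensing receptor also known outside the nose, was not well above background with vehicle, at -8.32 and -8.33, and lay at -5.54 and -5.44 with PD0325901. Normexp background correction left 138 lower and 3 higher of the 451, with a median of -0.17 and 1 at least 2-fold lower, and quantile normalization left 105 lower and 6 higher, and 9 rose with vehicle replicate 2 left out. Vomeronasal receptor genes gave 0 higher and 18 lower of 46, 22 of them not well above background on any array. Close copies within these families can share signal, and whether the signal is that of the named receptor was not tested.

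**Figure D5:**
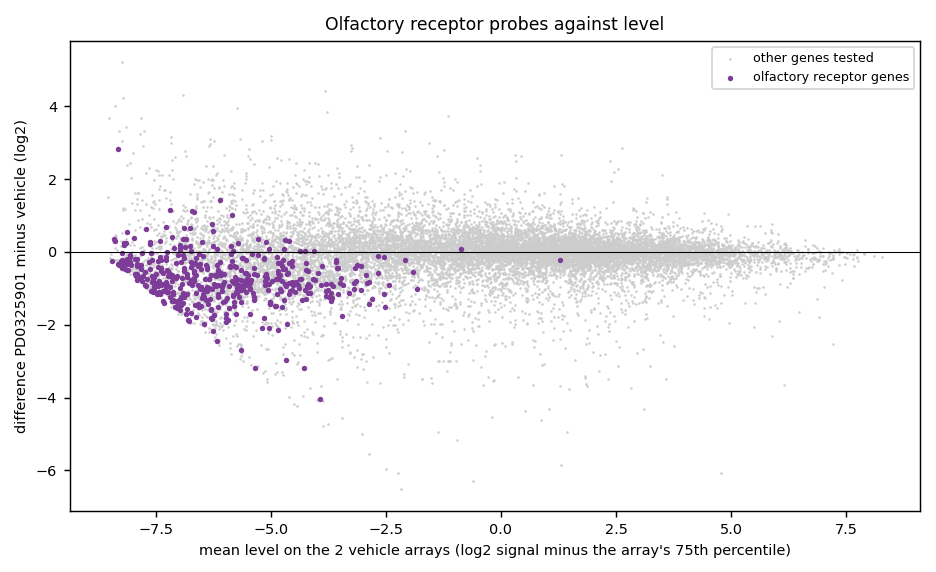
Difference between PD0325901 and vehicle (log2) against the mean level on the 2 vehicle arrays (log2 signal minus the array's 75th percentile) for the 451 olfactory receptor genes (purple) and all other tested genes (grey). The purple points lie mostly below 0 at every level up to about -2. The grey points are spread on both sides of 0 and lean below it at the dimmer levels.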

How the data were processed

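Total RNA (0.4 µg) of primary mouse Sertoli cells was measured on 6 1-colour Agilent arrays, 2 each for vehicle, bFGF and PD0325901, grouped by their treatment labels. Per the file headers, Agilent Feature Extraction 9.5.3.1 made the spot intensity values, which are background-subtracted and not normalized between arrays; the submitters' processing notes name version 9.5. The authors' deposited log2 table equals, within 0.02 for 100% of probes, these signals scaled per array and centred on each probe's median; how they set the scale is not given in the sources used here. Its column medians were 0.0195 and 0.0180 for vehicle and -0.107 and -0.0123 for PD0325901.

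Control spots and 83 flagged probes were left out, and 0 spots were saturated. Each processed signal was divided by the 75th percentile of its array, put on the log2 scale and averaged over the spots of a probe. Of 41174 probes 23374 (56.8%) had a gene name, through RefSeq accessions without version, and 17800 stayed unnamed. The brightest detected probe stood for its gene, and detected probes that disagree are mentioned. The share of probes well above background was 65.9% and 66.5% for vehicle and 66.5% and 64.8% for PD0325901. For bFGF it was 75.9% and 75.6%. Group means of all 6 arrays were fitted with limma 3.58.1 (lmFit and eBayes) in R 4.3.3, adjusted by Benjamini-Hochberg at 0.05, after a test on simulated data.

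A lower bound sets the bright group's mean against, per dim array, the higher of its lowest signal well above background and the probe's own signal. Promoter windows come from RefSeq's annotation of GRCm38.p6; gene coordinates are not given, because the array design names an older build. The genes and lists were chosen with earlier results of these data known. Named genes are the 3 markers, the largest folds in each direction outside the ERK feedback, cell cycle and cholesterol lists, the largest changes within each list or family, the brightest genes that gained or lost detection, and runs of neighbours; further list members, and the Egr2 promoter, were picked after their values were seen. Alternatives changed the background correction (normexp on the median spot signal, in place of the planned mean signal), the scaling, the dim-probe filter, the probe rule, the arrays fitted, the variance prior and a replicate block, and left out each array in turn. The normexp alternative also added a constant to every corrected signal, which makes log2 differences of dim probes smaller. Replicate numbers do not pair the samples: deviations of same-numbered vehicle and PD0325901 arrays correlated at 0.120, vehicle and bFGF at -0.077, bFGF and PD0325901 at -0.117. Results for some items are not reported here.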

Additional observations from a re-analysis of the deposited data

How the results depend on the processing

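Of 378 genes given with values, 329 kept their direction and their side of the threshold under all alternatives that gave them a value. The call was lost for 12 in at least 1 alternative that kept all 4 compared arrays. In 12 that did not pass, an alternative made a call. The sign turned for 1: Mrtfb, which did not pass, was at -0.45 as a mean over its probes. Normexp correction moved the number of genes at least 2-fold higher to 325 and lower to 472, and probes well above background on all 4 arrays gave 656 at least 2-fold lower, from fewer genes tested. The normexp setting added a constant to every signal, which by itself shrinks log2 differences of dim probes. Its part in the first shift was not tested. Leaving out 1 array gave 2279 to 3162 higher and 2805 to 4036 lower genes, 551 to 596 at least 2-fold higher and 986 to 1230 at least 2-fold lower. Median scaling moved the share of calls that were higher from 45.1% to 59.3%. With the replicate number as a block, 3155 genes were higher and 3800 lower, and 574 and 1049 at least 2-fold; the numbers give no known pairing. Signal near background limits 98 of the genes at least 2-fold higher, which were not well above it on the vehicle arrays, and 378 of those lower, which were not on the PD0325901 arrays.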
